A study of Mus musculus with 6 samples.

Results

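The genes described here are 9 genes of retinoic acid synthesis and handling, taken from the 45583 gene rows of the deposited count table by symbol: Rdh10, Aldh1a2, Aldh1a3, Dhrs3, Crabp1, Crabp2, Rbp4, Stra6 and Cyp26b1. They were chosen for their roles in the pathway, with earlier results of these data known. The libraries came from the cerebral cortex of 6 male fetuses of the Cyp19-EGFP strain, labelled wild type with the male gene Sry present, at gestational day (GD), GD15.5, per the labels and the study's methods, although its results text gives a later day. In the 3 BPA libraries the dam had been injected with 50 µg/kg bisphenol A (BPA, a plastic monomer with weak estrogenic action) from GD10.5 to GD14.5, and in the 3 vehicle libraries with peanut oil. Per the study's methods the strain has an FVB/N background and carries a bacterial artificial chromosome with the aromatase gene Cyp19a1 and an inserted green fluorescent protein. Whether these fetuses carried it is not stated for either group. Injections were daily and subcutaneous, with ethanol besides the oil. Fetuses, but not dams, are identified in the labels, so that some may share a litter and the p-values below measure only the spread between these libraries.

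Retinoic acid is a signaling molecule that cells make from vitamin A. Retinol travels in blood bound to Rbp4, enters cells through the receptor Stra6, is oxidized to retinal by Rdh10 and then to retinoic acid by the Aldh1a enzymes, while Dhrs3 returns retinal to retinol. Crabp1 and Crabp2 bind retinoic acid inside the cell, Cyp26 enzymes break it down, and nuclear receptors of the RAR and RXR families carry its effect to target genes. In the fetal forebrain the meninges are a known source of retinoic acid, and the developing striatum is a known site of its action.

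All 9 genes had at least 1 count in some library, and 7 of them had enough counts to be tested. Aldh1a2 and Rbp4 did not. Of the 7, 0 differed between BPA and vehicle by edgeR's quasi-likelihood test with adjusted p under 0.1, against 0% over the whole set of 13741. Before adjustment, p was under 0.05 for 1 of the 7, Crabp1, which was lower in BPA, against 2.20% of the whole set. The log2 fold changes of the 7 had a median of -0.15, with 5 below 0 and 2 above, and the median over all genes tested was 0.0016.

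Total counts ran from 3444601 to 7180835 per library, so that 3 counts, taken as the floor of detection, were worth 0.422 CPM (counts per 1000000, on TMM-scaled library size) in the deepest library and 0.875 CPM in the shallowest, counting error alone. No pair of libraries was as alike as counting noise alone would make it (chi-square over its degrees of freedom, 2.48 to 8.52). All 10 markers of the dorsal pallium were present, at a summed level from 3288 to 3816 CPM. Markers of meninges and choroid plexus were uneven between libraries. The 12 meningeal fibroblast markers summed to 115 CPM in vehicle replicate 3 and 90.2 CPM in BPA replicate 2, and to between 25.2 and 41.5 CPM in the other libraries. The 8 choroid plexus markers summed to 245 CPM in vehicle replicate 2 and 387 CPM in BPA replicate 2, against 23.7 to 28.1 CPM elsewhere. The 10 interneuron and ventral telencephalon markers summed to 1155, 1135 and 1011 CPM in vehicle and to 960, 964 and 884 CPM in BPA, and the groups did not overlap. The 8 striatum markers likewise did not overlap, with 354, 349 and 334 CPM in vehicle and 273, 294 and 297 CPM in BPA. In bulk tissue, fewer cells of a type and less RNA per cell cannot be told apart.

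Levels were compared between genes per kilobase of exon. Crabp1 stood highest, with a median of 18.2 CPM per kb over the 6 libraries and a range from 15.6 to 27.3. Cyp26b1 followed at 6.08 CPM per kb (5.19 to 6.49), and neither range touched that of the next gene. Dhrs3 (median 2.53 CPM per kb) and Rdh10 (2.24) overlapped each other, and Stra6 (1.77), Crabp2 (1.57), Aldh1a3 (0.895) and Rbp4 (0.843) each overlapped the next in order. Aldh1a2 was last, with a median of 0.137 CPM per kb and a range from 0 to 1.48. Crabp1 and Cyp26b1 transcripts were thus above those of Rdh10, Aldh1a2 and Aldh1a3 per length in every library.

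**Figure D1:**
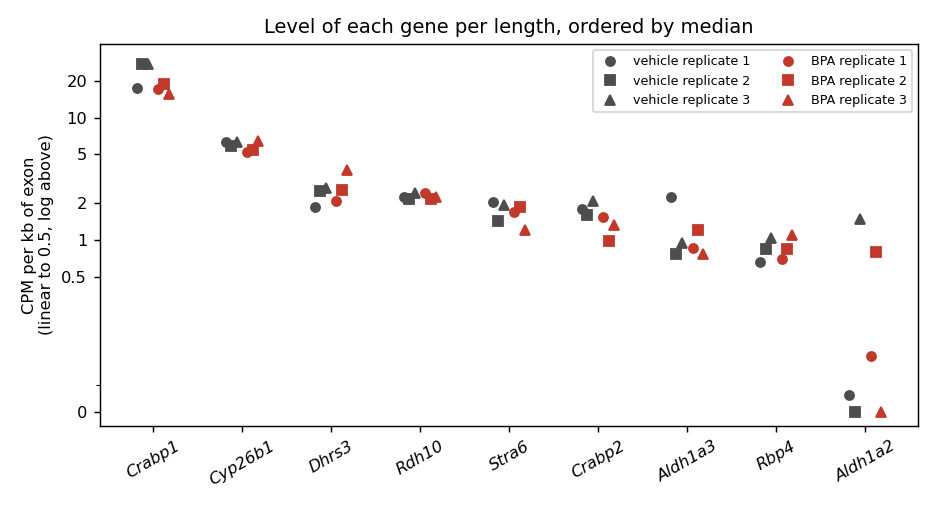
Level of each of the 9 genes in CPM per kb of exon (vertical axis, linear up to 0.5 and logarithmic above), with 1 point per library, gray for vehicle and red for BPA, and genes ordered by their median. Crabp1 and Cyp26b1 lie above the others in every library, and Aldh1a2 spreads from 0 to 1.48 CPM per kb.

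Transport and uptake come first in the pathway. Rbp4 (ENSMUSG00000024990.13, GRCm38 chromosome 19, 38116629 to 38125281, minus strand) encodes the plasma carrier of retinol. It had 6, 8 and 7 counts in the vehicle libraries and 6, 7 and 5 in the BPA libraries. It averaged 1.13 CPM ± 0.249 for vehicle against 1.18 CPM ± 0.261 for BPA (SD, n = 3 each), and at so few counts it was not tested. The exact 95% Poisson interval of its level in a single library ran, for example, from 0.474 to 3.404 CPM in BPA replicate 3, too wide to show any difference of the size seen.

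Stra6 (ENSMUSG00000032327.14, chromosome 9, 58063788 to 58153996, plus strand) encodes the membrane receptor that takes up retinol from Rbp4. It was at 11.9, 8.31 and 11.2 CPM in vehicle and at 9.89, 10.7 and 7.0 CPM in BPA. The groups overlapped, and the lowest library was BPA replicate 3. For Stra6 the log2 fold change, BPA over vehicle, was -0.15 (95% interval -0.61 to 0.31), and edgeR gave an unadjusted p = 0.509 and an adjusted p = 0.9998. Neither Rbp4 nor Stra6 was highest in the libraries rich in choroid plexus markers. The retinal pigment epithelium is rich in Stra6, and so 6 eye markers were measured too, of which Rpe65, Tyr and Crx had 0 counts in every library and 2 exceeded 3 counts in any. Their sums were 8.09, 5.49 and 2.37 CPM in vehicle and 7.54, 5.53 and 4.96 CPM in BPA. Vehicle replicate 1 had the highest eye sum and the highest Stra6. Vehicle replicate 3 had the lowest eye sum and the next highest Stra6. The part of eye tissue in the level of Stra6 was not tested.

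Rdh10 (ENSMUSG00000025921.7, chromosome 1, 16105774 to 16133734, plus strand) encodes the dehydrogenase that turns retinol into retinal. It was the steadiest of the 9 genes, at 9.27, 9.01 and 10.1 CPM in vehicle and 10.1, 8.94 and 9.34 CPM in BPA. The highest library exceeded the lowest by 1.13-fold, and the counts varied less than counting noise alone would give on average (chi-square per degree of freedom of 0.157 over the 6 libraries). Vehicle averaged 9.44 CPM ± 0.546 and BPA 9.44 CPM ± 0.564 (SD, n = 3 each). Its log2 fold change was 0.01 with an interval from -0.39 to 0.41, so that changes of Rdh10 within that interval are compatible with these counts.

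Dhrs3 (ENSMUSG00000066026.14, chromosome 4, 144892827 to 144928209, plus strand) encodes the reductase that turns retinal back into retinol and is itself known as a target of retinoic acid. It was at 5.44, 7.32 and 7.69 CPM in vehicle and at 6.12, 7.48 and 10.8 CPM in BPA. Only BPA replicate 3, the shallowest library, lay above all vehicle libraries. The log2 fold change of Dhrs3 was 0.21 (95% interval -0.32 to 0.74, unadjusted p = 0.410, edgeR), and without BPA replicate 3 it was 0.0031. Set against each other per length, Rdh10 over Dhrs3 gave ratios of 1.198, 0.866 and 0.920 in vehicle and 1.155, 0.841 and 0.609 in BPA, and these overlapped.

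Aldh1a2 (ENSMUSG00000013584.5, chromosome 9, 71215789 to 71296243, plus strand) encodes the retinal dehydrogenase of the meninges and was the most uneven of the 9 genes. It had 1, 0 and 17 counts in the vehicle libraries and 3, 11 and 0 counts in the BPA libraries. Only vehicle replicate 3, at 3.35 CPM (exact 95% Poisson interval 1.95 to 5.37, counting error only), and BPA replicate 2, at 1.79 CPM (0.892 to 3.20), were above 3 counts. A single library of each group thus carried nearly all of the signal.

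The same pair of libraries had the highest sums of meningeal markers. The collagen gene Col1a1 was at 22.7 CPM in vehicle replicate 3 and 13.3 CPM in BPA replicate 2, and at 2.06 to 5.50 CPM in the other libraries. Decorin (Dcn), a proteoglycan gene of fibroblasts, was at 8.87 and 8.29 CPM in that pair and at 0.735 to 1.75 CPM elsewhere. Of the 12 markers, 10 were higher in both of that pair than in any other library. Ptgds and Foxd1 were not, with Ptgds at 6.28 CPM in BPA replicate 1 against 5.36 CPM in BPA replicate 2. Twist1, among the 10, never exceeded 3 counts. The pair was picked from these values, and the share of all genes with the same pattern was not counted. BPA replicate 1 came next in Aldh1a2, with 0.471 CPM, and next in the meningeal sum, with 41.5 CPM. With all genes tested whatever their counts, Aldh1a2 had a log2 fold change of -0.22 (edgeR, unadjusted p = 0.718). Fitted values of this gene were -0.84 without vehicle replicate 2 and 0.18 without BPA replicate 3, so that its direction rested on single libraries. The part of dissected meninges in these values was not tested.

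Aldh1a3 (ENSMUSG00000015134.15, chromosome 7, 66390890 to 66427517, minus strand) encodes another retinal dehydrogenase, known from the lateral ganglionic eminence and the eye. It was at 10.3, 3.52 and 4.34 CPM in vehicle and at 3.93, 5.53 and 3.50 CPM in BPA. Vehicle replicate 1, with 70 counts, stood above the other 5 libraries, which had 12 to 34 counts. Aldh1a3 gave a log2 fold change of -0.47 (95% interval -1.25 to 0.31, unadjusted p = 0.218, adjusted p = 0.9998, edgeR). Without vehicle replicate 1 the value turned to 0.18 (unadjusted p = 0.583), so that the lower mean in BPA rested on that library. Vehicle replicate 1 also had the highest sums of interneuron (1155 CPM), striatum (354 CPM) and eye markers (8.09 CPM). Its sum of dorsal pallium markers was the lowest, at 3288 CPM. Vehicle replicate 2 came close in interneuron (1135 CPM) and striatum sums (349 CPM), with Aldh1a3 at 3.52 CPM. BPA replicate 1 came close in eye sum (7.54 CPM), with Aldh1a3 at 3.93 CPM. The part of those cells in the level of Aldh1a3 was not tested.

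**Figure D2:**
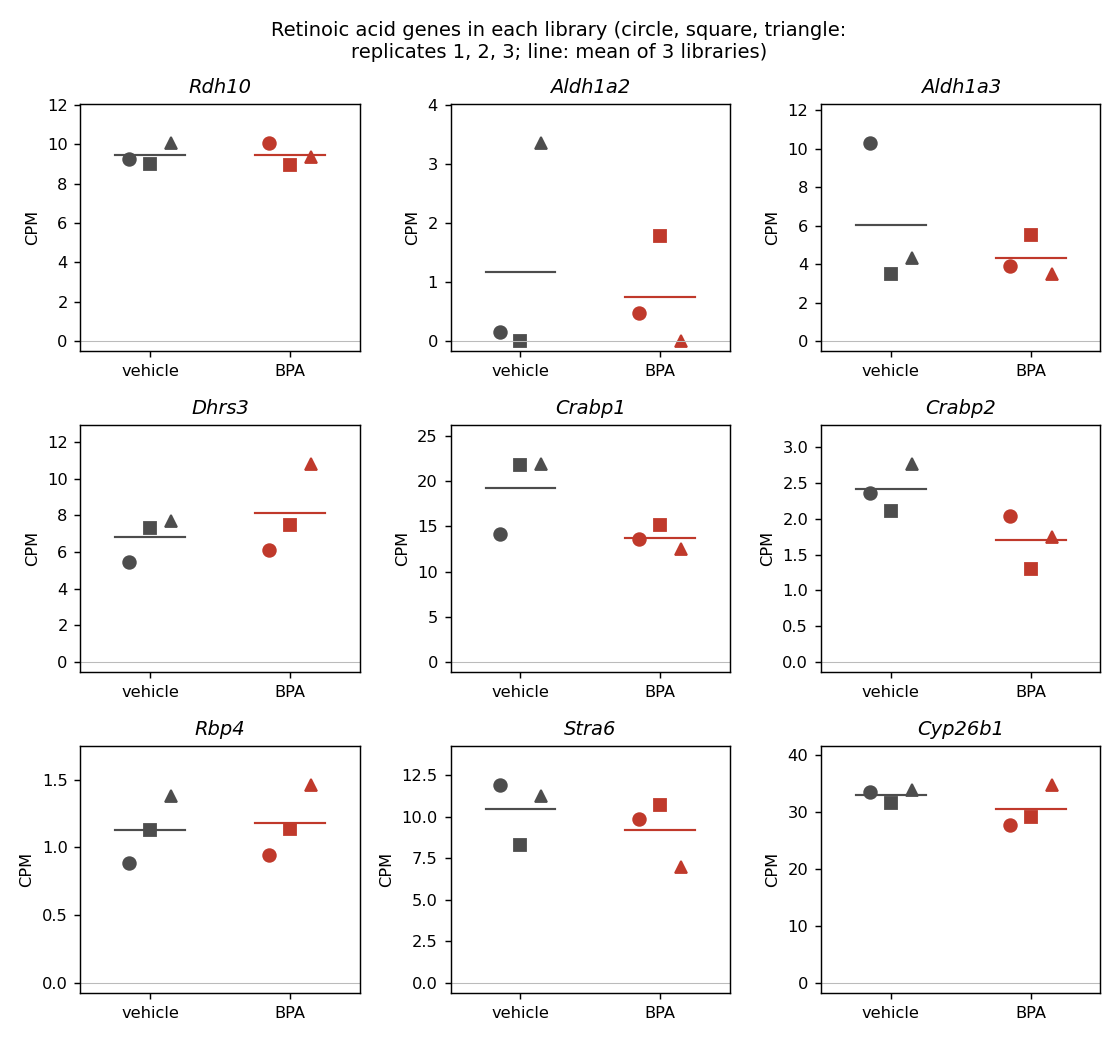
Level of each gene in CPM (vertical axes, each with its own scale) in the 3 vehicle and 3 BPA libraries, with circle, square and triangle for replicates 1, 2 and 3 and a line at the group mean. Crabp2 is the gene whose groups do not overlap, Rdh10 lies between 8.94 and 10.1 CPM in all 6 libraries, and 1 vehicle library stands apart for Aldh1a3.

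Crabp1 (ENSMUSG00000032291.8, chromosome 9, 54764748 to 54773110, plus strand) encodes a cytosolic protein that binds retinoic acid and is known in migrating interneurons. It was at 14.1, 21.8 and 21.9 CPM in vehicle and at 13.7, 15.1 and 12.5 CPM in BPA. Vehicle replicates 2 and 3 lay above all BPA libraries, while vehicle replicate 1 lay within their range. Vehicle averaged 19.3 CPM ± 4.47 and BPA 13.8 CPM ± 1.29 (SD, n = 3 each). On the log2 scale Crabp1 differed by -0.47 (SE 0.188, 95% interval -0.86 to -0.07). By edgeR, unadjusted p = 0.0248 and adjusted p = 0.9998, so that the difference did not pass the threshold.

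The direction for Crabp1 was the same in all 16 alternative analyses, from -0.65 without vehicle replicate 1 to -0.35 without vehicle replicate 2. The unadjusted p was over 0.05 without vehicle replicate 2 (0.103), vehicle replicate 3 (0.0935), BPA replicate 1 (0.0615) or BPA replicate 3 (0.0614), and without the meningeal-rich pair (0.0866) or the choroid-rich pair (0.0724). The interneuron and ventral markers named above were lower in BPA as well, and 4 of the 10 had an unadjusted p under 0.05, all lower in BPA, where 1.18% of the whole set did so. Crabp1 as a percent of their summed CPM was 1.22, 1.92 and 2.17 in vehicle and 1.42, 1.57 and 1.42 in BPA. These values overlapped between the groups. Within vehicle, replicate 1 had the highest marker sum (1155 CPM) and the lowest Crabp1 (14.1 CPM). Replicate 3 had the lowest marker sum of the vehicle libraries (1011 CPM) and the highest Crabp1 (21.9 CPM). Within BPA the order was the same for both. There replicate 2 had the highest marker sum (964 CPM) and the highest Crabp1 (15.1 CPM). BPA replicate 3 had the lowest of each (884 CPM and 12.5 CPM). The part of interneuron number in the level of Crabp1 was not tested.

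Because Crabp1 had the smallest p of the 9 genes and the highest level, the 100 bases before its RefSeq start are shown (GRCm38.p6, chr9:54764648-54764747, plus strand), with GC boxes (GGGCGG on the strand of the gene) in capitals. RefSeq promoter windows span 250 bases before to 50 after a start, and 35.7% of the 32851 windows hold this motif on either strand. That share covers whole windows and both strands, so that it is not a like measure for the boxes marked here. Matches on the opposite strand are not marked. None of the 100 bases shown lies in a GENCODE exon of the gene.
Crabp1: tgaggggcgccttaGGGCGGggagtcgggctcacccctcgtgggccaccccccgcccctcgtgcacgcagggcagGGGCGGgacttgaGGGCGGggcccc

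Crabp2 (ENSMUSG00000004885.5, chromosome 3, 87948666 to 87953376, plus strand) encodes the paralog that carries retinoic acid to its nuclear receptor. It was at 2.35, 2.11 and 2.76 CPM in vehicle, from 16, 15 and 14 counts, and at 2.04, 1.30 and 1.75 CPM in BPA, from 13, 8 and 6 counts. Every BPA value lay under every vehicle value. Such separation, in either direction, was found for 1 of the 7 genes tested here and for 6.75% of all genes tested, 3.56% lower in BPA and 3.19% higher. The closest libraries, vehicle replicate 2 and BPA replicate 1, differed by far less than their counting intervals (1.182 to 3.48 and 1.09 to 3.49 CPM). The log2 fold change was -0.49 (95% interval -1.24 to 0.26, unadjusted p = 0.187, edgeR). Over 15 alternatives it ran from -0.69 to -0.21. The latter came without the pair of libraries rich in meningeal markers (edgeR, unadjusted p = 0.657). Unlike Aldh1a2, Crabp2 was not high in both of that pair: vehicle replicate 3 had its highest level and BPA replicate 2 its lowest. Leaving the pair out was thus bound to shrink the difference, and the smaller value says nothing of meninges. Per length, Crabp1 exceeded Crabp2 by 9.89, 17.0 and 13.1 times in vehicle and by 11.0, 19.2 and 11.8 times in BPA.

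**Figure D3:**
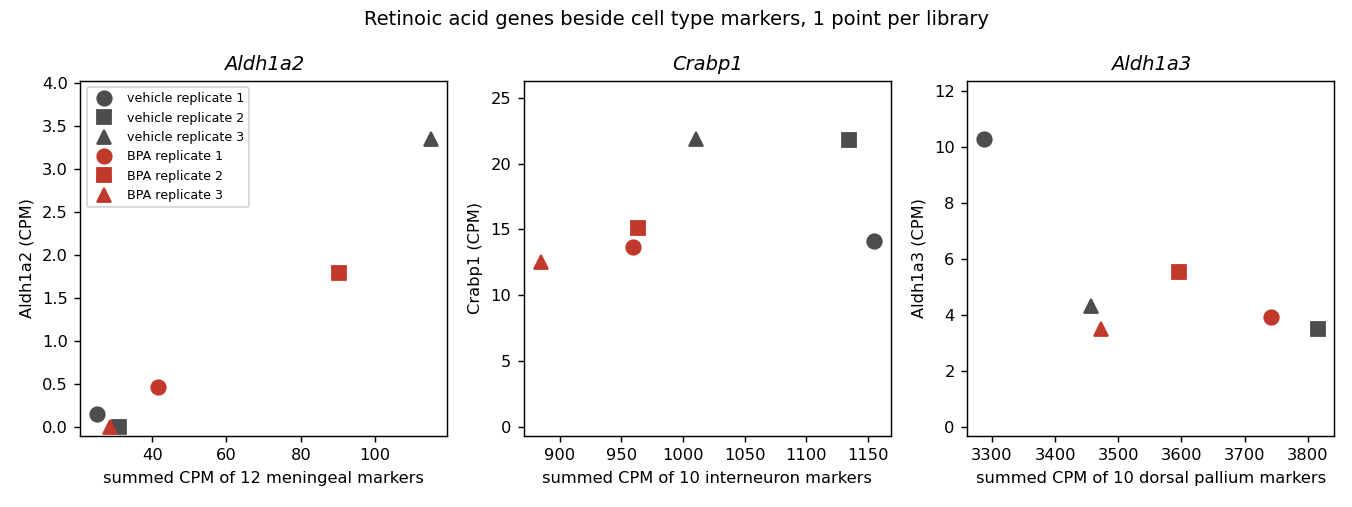
Level of Aldh1a2, Crabp1 and Aldh1a3 in CPM (vertical axes) against the summed CPM of 12 meningeal, 10 interneuron and 10 dorsal pallium markers (horizontal axes, which do not start at 0), with 1 point per library, gray for vehicle and red for BPA. The pair of libraries with over 90 CPM of meningeal markers has the highest Aldh1a2, and vehicle replicate 1 combines the highest Aldh1a3 with the lowest pallial sum. Among vehicle libraries, the one with the highest interneuron sum has the lowest Crabp1, and among BPA libraries it has the highest.

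Cyp26b1 (ENSMUSG00000063415.12, chromosome 6, 84571414 to 84593908, minus strand) encodes the hydroxylase that breaks down retinoic acid in brain, and with 119 to 228 counts per library it was the most precisely measured of the 9 genes. It was at 33.5, 31.5 and 33.9 CPM in vehicle and at 27.8, 29.1 and 34.7 CPM in BPA. BPA replicates 1 and 2 lay below all vehicle libraries and BPA replicate 3 above them. The log2 fold change of Cyp26b1 was -0.13 (SE 0.129, 95% interval -0.40 to 0.15, unadjusted p = 0.347, edgeR). The other members of its family were all but silent, since Cyp26a1 had 1 count and Cyp26c1 had 2, all in vehicle replicate 1. Per length, Cyp26b1 exceeded Aldh1a3 by 2.81, 7.73 and 6.74 times in vehicle and by 6.11, 4.54 and 8.55 times in BPA, with overlap between the groups.

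The wider pathway was read from a list of 71 further genes, of which 34 had enough counts to be tested and 35 never exceeded 3 counts. Of the 34, 0 passed the adjusted threshold, against 0% of the whole set. Before adjustment, p was under 0.05 for 3 genes, of which 2 were lower in BPA (Rxrg among them) and 1 was higher (Fabp5), where 1.18% and 1.02% of all genes tested did so. The libraries of Rara, Zfp503, Meis1 and Rdh14 did not overlap, all lower in BPA, where 3.56% of all genes tested did so. The median log2 fold change of the 34 was -0.03.

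Fabp5, which can deliver retinoic acid to another nuclear receptor, was at 38.5, 51.0 and 59.8 CPM in vehicle and at 63.0, 73.0 and 51.6 CPM in BPA, a log2 fold change of 0.35 (95% interval 0.02 to 0.68, unadjusted p = 0.0411, adjusted p = 0.9998). Transthyretin (Ttr), which binds Rbp4 in blood and is a choroid plexus marker, was at 2.21, 195 and 5.72 CPM in vehicle and at 11.9, 308 and 10.2 CPM in BPA, following the choroid plexus sums. The dehydrogenase Aldh1a1 was never above 2 counts, under the floor, and was not tested.

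Receptors were all present. Per length, Rxrb was highest with a median of 23.5 CPM per kb, followed by Rxrg (11.4), Rxra (6.31), Rara (5.72), Rarb (3.82) and Rarg (3.58). Rxrg, a receptor known from the striatum, was at 34.1, 24.6 and 39.8 CPM in vehicle and at 21.7, 24.2 and 27.7 CPM in BPA. These values overlapped, and the log2 fold change was -0.43 (95% interval -0.79 to -0.07, unadjusted p = 0.0232, adjusted p = 0.9998, edgeR). Rara was at 26.9, 30.8 and 25.05 CPM in vehicle and at 21.7, 24.9 and 23.3 CPM in BPA, so that its groups stood apart by a small margin (log2 fold change -0.25, 95% interval -0.54 to 0.04, unadjusted p = 0.0885, edgeR). Log2 fold changes of Rarb, Rarg, Rxra and Rxrb were -0.25, 0.14, -0.04 and -0.03, each with an interval that held 0.

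Rarb is both a receptor and a classical target of retinoic acid, and together with Cyp26a1 it held the only repeat of receptor binding hexamers with a 5-base spacer found in the promoter windows of the pathway. Hexamers reading AGGTCA, or its common variant AGTTCA, or either of these starting with another purine, GGGTCA and likewise also GGTTCA, were searched as direct repeats on both strands. Spacers were 1, 2 or 5 bases, and overlapping matches were counted. The 5-base spacer was found in 32 of 32851 windows (0.0974%), the 2-base spacer in 0.268% and the 1-base spacer in 0.222%. Of the 9 genes, 6 had a window (12 windows in all) and 0 of these held a repeat with any of the 3 spacers. Rdh10, Aldh1a3 and Crabp2 had no window. Of the 71 genes of the wider list, 52 had a window, so that the others were not searched. Bco1 held a repeat with the 1-base spacer, and no gene of that list held the 2-base spacer. The elements of Rarb, present in every library, and of Cyp26a1, all but silent, are shown with hexamers in capitals. That of Rarb lies at chr14:16575513-16575529 on the strand of the gene, and that of Cyp26a1 at chr19:37697776-37697792 on the strand opposite to the gene (GRCm38.p6).
Rarb: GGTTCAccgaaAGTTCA
Cyp26a1: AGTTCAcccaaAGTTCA

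Rarb was at 21.5, 16.8 and 21.9 CPM in vehicle and at 11.0, 20.6 and 19.5 CPM in BPA, with BPA replicate 1 the lowest and the groups overlapping (log2 fold change -0.25, 95% interval -0.69 to 0.20, unadjusted p = 0.254, edgeR). Cyp26a1 had 0 counts in 5 of the 6 libraries. A match is a description of letters, not of binding.

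Among 20 genes known as targets of retinoic acid in other settings, 12 had 0 counts in every library. These included 10 of the 11 Hox genes, which pattern the hindbrain and spinal cord, and the remaining Hox gene, Hoxb4, had 1 count in each of 2 libraries. The 5 targets with enough counts to be tested all had log2 fold changes below 0, with a median of -0.15, while 6799 of the 13741 genes tested were below 0. They were -0.29 for Zfp503, -0.17 for Meis1, -0.15 for Meis2, -0.11 for Drd2 and -0.01 for Tgm2. All 5 had intervals that held 0. Dhrs3, described above and not counted among them, was above 0. The zinc finger gene Zfp503, known from the striatum, was at 42.7, 43.4 and 41.4 CPM in vehicle and at 36.4, 39.8 and 26.6 CPM in BPA (log2 fold change -0.29, 95% interval -0.58 to 0.01, unadjusted p = 0.0548, edgeR). The homeobox gene Meis1 was at 30.004, 34.2 and 30.4 CPM in vehicle and at 29.994, 28.3 and 25.1 CPM in BPA, where vehicle replicate 1 and BPA replicate 1 all but met. Rdh14, a retinol dehydrogenase, was at 12.8, 13.2 and 12.6 CPM in vehicle and at 11.6, 10.9 and 11.1 CPM in BPA, a log2 fold change of -0.20 (unadjusted p = 0.249, edgeR).

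Rxrg and Rarb were measured beside the striatum markers, whose sums were lower in BPA. Of these markers, 4 of 8 had an unadjusted p under 0.05, all lower in BPA, as did 1.18% of the whole set. Rarb is itself 1 of the 8. As a percent of the summed CPM of the other 7, Rxrg was 10.3, 7.42 and 12.8 in vehicle and 8.28, 8.84 and 9.98 in BPA, and Rarb was 6.45, 5.04 and 7.01 in vehicle and 4.20, 7.54 and 7.04 in BPA. Both ratios overlapped between the groups. No such ratio was taken for Zfp503, Meis2 or Drd2. The part of striatal tissue in the levels of Rxrg, Rarb, Zfp503, Meis2 and Drd2 was not tested.

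**Figure D4:**
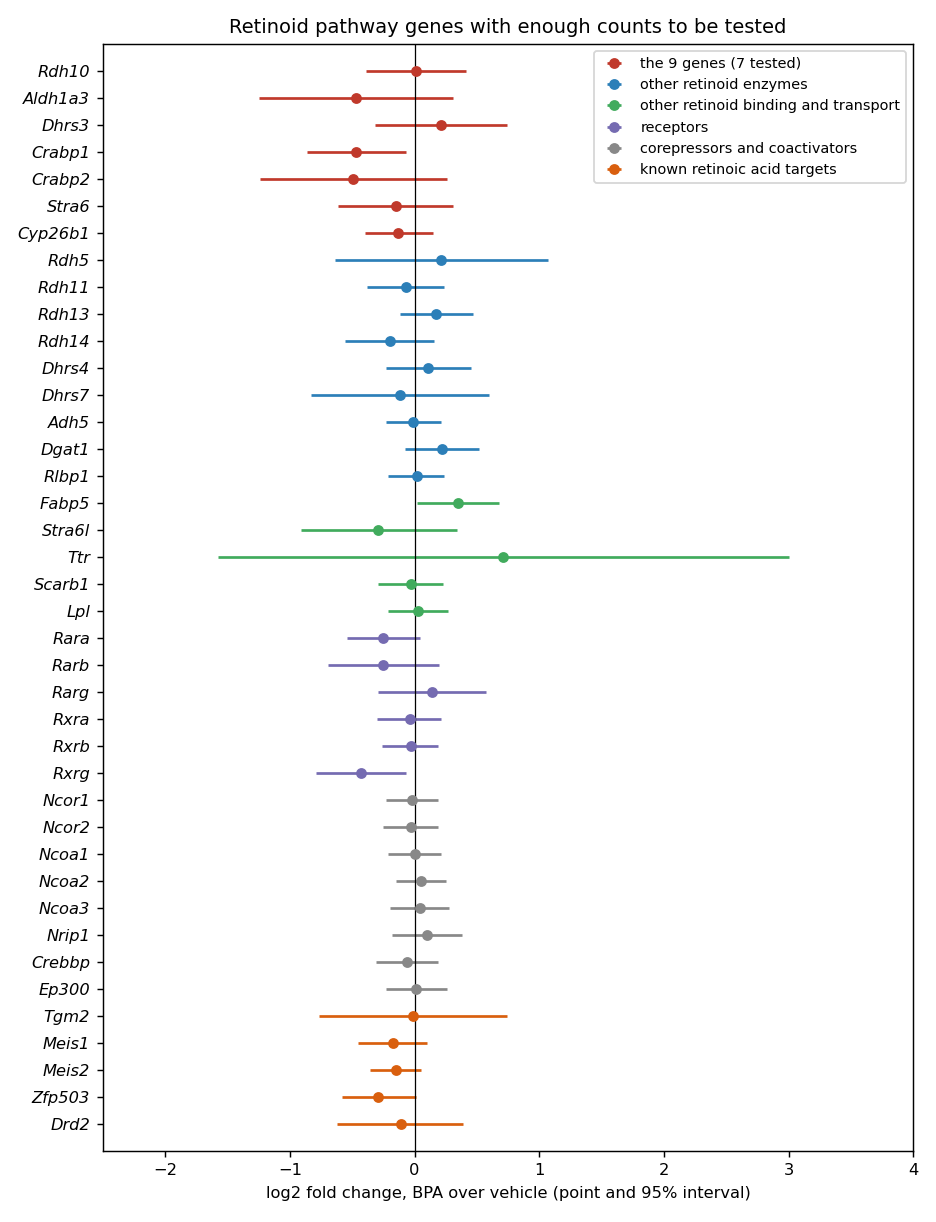
Log2 fold change, BPA over vehicle, with its 95% interval (horizontal axis) for the 7 tested genes of the 9 and the tested genes of the wider list, 1 left out, colored by role. Intervals of Crabp1 and Rxrg lie below 0 and that of Fabp5 above it, before adjustment for the 13741 genes tested, and Ttr has the widest interval.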

How the data were processed

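Read counts per gene, as deposited by the authors, were used for all 6 libraries, with groups from the labels and replicates numbered in accession order. According to the study's methods, strand-specific libraries gave single-end 50-base reads. TopHat 2.0.14 aligned these to GRCm38 and featureCounts summarized them. GENCODE models and StringTie 1.2.4, for assembly, are also named. Use of strand and of reads with several alignments is not stated. Of the 9 genes, 8 shared no 50-base transcript word with another gene, Aldh1a3 shared 1.15%, and none overlapped exons of another gene in GENCODE M21.

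Genes were filtered with filterByExpr of edgeR 4.0.16 (minimum count 10), scaled by TMM and tested with glmQLFTest (edgeR, no covariates) over 13741 genes, with Benjamini-Hochberg adjustment at 0.1, in R 4.3.3. Standard errors and 95% intervals are those implied by the test statistic. Scripts were tested on simulated data. Alternatives were DESeq2 1.42.0, limma-voom 3.58.1, other scalings and filters, and omission of each library. Omission of library pairs rich in meningeal or choroid plexus markers was chosen after seeing the data. The 9 genes and all lists were chosen with earlier results of these data known. Named genes were the 9, the receptors, Ttr, Aldh1a1, genes of the wider list with an unadjusted p under 0.05 or groups that did not overlap, and the 3 genes most correlated with each tested member. One gene that the rule names is not reported here. Other genes named (Cyp26a1, Cyp26c1, Hoxb4, Tgm2, Meis2, Drd2, Lrat, Bco1 and single markers) were chosen after their values were seen.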

Additional observations from a re-analysis of the deposited data

How the results depend on the processing

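None of the 9 genes passed the adjusted threshold in any alternative, and the lowest adjusted p was 0.556, for Aldh1a3 without the pair of libraries rich in choroid plexus markers. The count at an unadjusted p under 0.05, 1 in the analysis reported, was 0 to 1 on omission of single libraries and was 0 without the meningeal-rich pair. Without vehicle replicate 2, and without the choroid-rich pair, the 1 gene was Aldh1a3 and not Crabp1. Leaving out one library moved Rdh10 from -0.05 to 0.05 and Aldh1a3 from -0.77 to 0.18 on the log2 scale, which turned the direction of both. The median log2 fold change of the tested genes among the 9 moved from -0.1461 to -0.0727 without vehicle replicate 1, -0.3235 without vehicle replicate 2, -0.2643 without BPA replicate 2 and -0.3809 without the choroid-rich pair. In the wider list, 1 gene (Ttr) passed the adjusted threshold with no filter and 1 (Ttr) without the choroid-rich pair, and the count at an unadjusted p under 0.05 was 5 with no filter, 6 without the choroid-rich pair and 0 to 5 with one library left out. Rxrg and Fabp5 kept their direction in 16 alternatives, with unadjusted p up to 0.214 and 0.220. Over all genes, 3 passed with DESeq2, 19 with no filter, 2 without the meningeal-rich pair, 15 without the choroid-rich pair and 0 to 1 with one library left out. Before adjustment 302 genes had p under 0.05; DESeq2 gave 126, testing without a filter 620, a minimum of 10 CPM 162, omission of the choroid-rich pair 954 and omission of single libraries 194 to 708. For none of these changes was the cause tested. No paired analysis was possible because the replicates carry no shared numbers in the labels. Depth limits Aldh1a2, Rbp4 and Crabp2 most, with at most 17 counts per library.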

Other observations

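Lrat, which stores retinol as esters, had 1 count in each of 2 libraries and 0 in the others. For each of the 7 tested genes, the 3 genes averaging at least 1 CPM whose log2 CPM correlated best with it across the 6 libraries are given as a description. They were Plekhh1, Arrdc3 and Yipf6 for Rdh10; Bmf, Glmn and Glmp for Aldh1a3; Ubtd1, Hydin and Nefh for Dhrs3; Gm6851, Slc25a28 and Zfp28 for Crabp1. They were Gm9987, Gm12389 and Kcnmb4 for Crabp2, Mrpl17, Gm3608 and Lyrm5 for Stra6, and Inafm1, Ppp3cb and Alad for Cyp26b1. Pearson's r ran from 0.970 to 0.997. With 6 libraries and 13740 genes compared, from 35 to 153 genes had an r above 0.9 for each member, so that these names say little.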
